A study of Mus musculus with 12 samples.

Results

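Of 5030 spots on a mouse expression array, 47 carried the symbol of a translation factor or a regulator named after one, a splicing or RNA-binding factor, a DEAD-box RNA helicase, or a subunit of RNA polymerase I or II. They are every spot with a single gene symbol that starts with Eif, Eef, Hnrnp, Srsf, Sf3, Snrp, Ddx, Polr1, Polr2 or Polr3. This rule uses names alone and no measured value, but it was chosen with earlier results of these data known. The 47 spots stand for 46 of the 4605 genes named by 1 symbol, because Ddx3x has a pair of spots. There were 13 genes named after initiation factors (Eif) and 2 after elongation factors (Eef). The Eif names include kinases of eIF2 and binding proteins of Eif4e, and the Eef names include the kinase Eef2k. The rest were 4 RNA polymerase I and 3 RNA polymerase II subunit genes, 8 hnRNP (Hnrnp) genes, 4 SR protein (Srsf) genes, 1 Sf3 gene, 5 snRNP (Snrp) genes and 6 DEAD-box (Ddx) genes. No spot began with Polr3. The arrays, 12 in number and read in 1 colour, carried total RNA of 2 mouse cell lines from bone, with 3 arrays for each of 4 groups. 2T3 is a line of osteoblasts, the cells that lay down bone matrix, from a mouse in which the BMP-2 promoter drives the SV-40 T antigen. MLO-Y4 is a line of osteocytes, the cells embedded in bone that contact each other through gap junctions, from a mouse in which the osteocalcin promoter drives a T antigen. For each line the labels give a pair of groups, 2T3 C0 with 2T3 low and MLO-Y4 high with MLO-Y4 low. All 4 groups therefore carry the T antigen transgene, the labels give no other treatment, and each cell type is represented by 1 line, so line and cell type cannot be told apart. The labels speak of sparse against confluent osteoblasts, and of osteocytes with against without gap junctions. C0 was taken as the confluent culture, and high as the one with gap junctions, only because the other group of each line is called low. The labels number the arrays of a group 1 to 3 without saying that they come from separate cultures, so the spread behind each p-value is that among arrays and may be technical.

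These genes carry out consecutive steps of gene expression. RNA polymerase I makes the large ribosomal RNA and RNA polymerase II makes messenger RNA. The snRNPs and the Sf3 complexes remove introns, SR and hnRNP proteins bind the transcript and guide splice site choice, and DEAD-box helicases remodel RNA during splicing, export, decay and translation. Initiation factors bring the ribosome to the messenger RNA, with Eif4e binding its cap and eIF2 delivering the initiator tRNA. Kinases of eIF2 lower initiation in response to stress, and elongation factors move the ribosome along the message.

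The deposited values are background-subtracted spot intensities. Array totals ran from 212491 to 1680311 and array medians from 4 to 55, so the typical spot lay close to background. Values were brought to a common distribution across arrays by quantile normalization, and every level below is in those normalized units, with values under 6.08, the 25th percentile, set to it. A spot was called above the limit on an array where its deposited value exceeded the size of that array's lowest, negative value, and between 37.9% and 74.8% of spots did so. All 12 arrays gave a value above the limit for 26 of the 47 members (55.3%), as against 1253 of 5030 spots (24.9%). In all, 45 were above it on at least 3 arrays, and the other 2, Eif2ak3 and Polr1a, on fewer. The replicate 1 arrays of both MLO-Y4 groups stood apart: they lay at -71.7 and -78.3 on the first principal component, which held 31.1% of the variance and on which the next array lay at -15.9. On the second component (22.4%) 2T3 C0 replicate 1 stood apart, at -74.8, with the next array at -22.2. After normalization the limit was 47.2 and 47.8 units on the MLO-Y4 replicate 1 arrays and at most 25.1 on the others. Results are therefore also given without both MLO-Y4 replicate 1 arrays where a call changed. The marker lists went with the line names for osteocytes. Of 7 measured osteocyte markers, 6 were higher in MLO-Y4 (adjusted p under 0.05) and none lower, but Phex was above the limit on no array of either line. Of 8 osteoblast markers 1, Msx2, was lower in MLO-Y4 and none was higher. Of 8 macrophage and osteoclast markers, Csf1r was higher and Tyrobp lower in MLO-Y4. Of 12 proliferation markers, Rrm2 was higher and Mcm5 and Plk1 were lower in MLO-Y4, and the part that proliferation or cell density has in the results below was not tested. In RNA from a whole culture, a lower level in each cell and fewer cells that express a gene cannot be told apart.

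**Figure D1:**
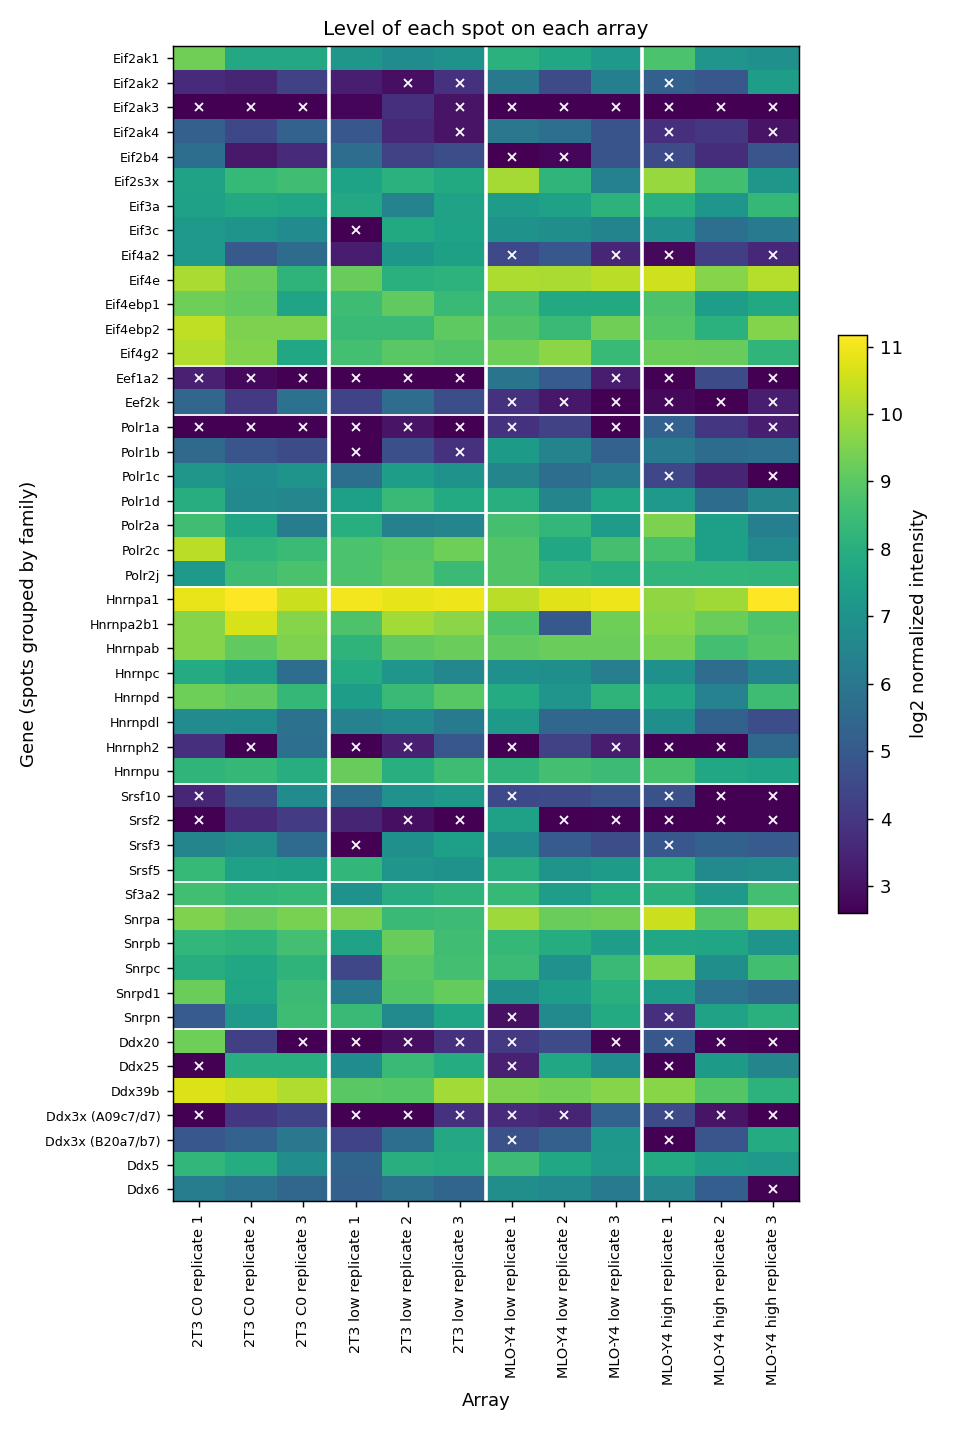
Log2 normalized intensity (colour) of the 47 member spots (rows, grouped by family) on the 12 arrays (columns, separated by group). A white cross marks a spot that was not above the detection limit on that array. Crosses gather in some rows, such as Eif2ak3 and Polr1a, and in the columns of MLO-Y4 high, where the replicate 1 array had 29 of 47 member spots above the limit.

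The first question of the design, named in the labels, is how the osteocyte line differs from the osteoblast line. Over both densities, 5 members differed: Eif2ak2, Polr1b and Eif4e were higher in MLO-Y4, by 4.45-fold, 3.30-fold and 2.51-fold, and Polr1c and Eef2k were lower. The difference was tested over all 5030 spots with limma, and p-values were adjusted by the Benjamini-Hochberg method with a threshold of 0.05. The members called were 3 of 47 higher (6.38%) and 2 of 47 lower (4.26%), near the 5.83% of all spots called higher and the 3.48% called lower (9.3% in either direction). Arrays of the lines did not overlap for 1 member that was higher, Eif2ak2 (2.13%, as against 4.1% of all spots), and 1 that was lower, Eef2k (2.13%, as against 1.75%). So the 47 members were called about as often as all spots. Among spots above the limit on all 12 arrays they were called less often. There, 1 of 26 members was higher (3.85%) and 0 were lower, as against 9.98% and 4.47% of 1253 spots. An unadjusted limma p under 0.05 was found for 11.5% of those members and 31.4% of those spots. What follows describes single genes. The split depended on scaling: equal medians called 414 spots higher and 94 lower, and scaling on the detected spots 240 higher and 308 lower, where the main analysis called 293 and 175. Among members the split was 3 higher and 2 lower with equal medians and 1 higher and 4 lower with detected-spot scaling. Of the 47 log2 differences 17 were positive and 30 negative, with a median of -0.29 as against -0.03 over all spots. This median also moved with the scaling, to 0.43 with equal medians and -0.38 with detected-spot scaling, while the median of spots detected on every array moved from 0.04 to 0.79 and -0.07. Set against those detected spots, the median of all 47 members differed by -0.33, -0.35 and -0.31 on the log2 scale in the main analysis, with equal medians and with detected-spot scaling. This describes the list and was not tested, and it sets members not detected on every array against spots that were. The 26 members detected on every array had a median of -0.23 in the main analysis, as against 0.04 for such spots. The distance of all 47 was smaller with normexp (-0.16), with the floor at the 40th percentile (-0.18) and with the floor at the highest detection limit (-0.13). The members' own median, -0.29, was -0.18 without 2T3 C0 replicate 1 and -0.15 without MLO-Y4 high replicate 2.

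**Figure D2:**
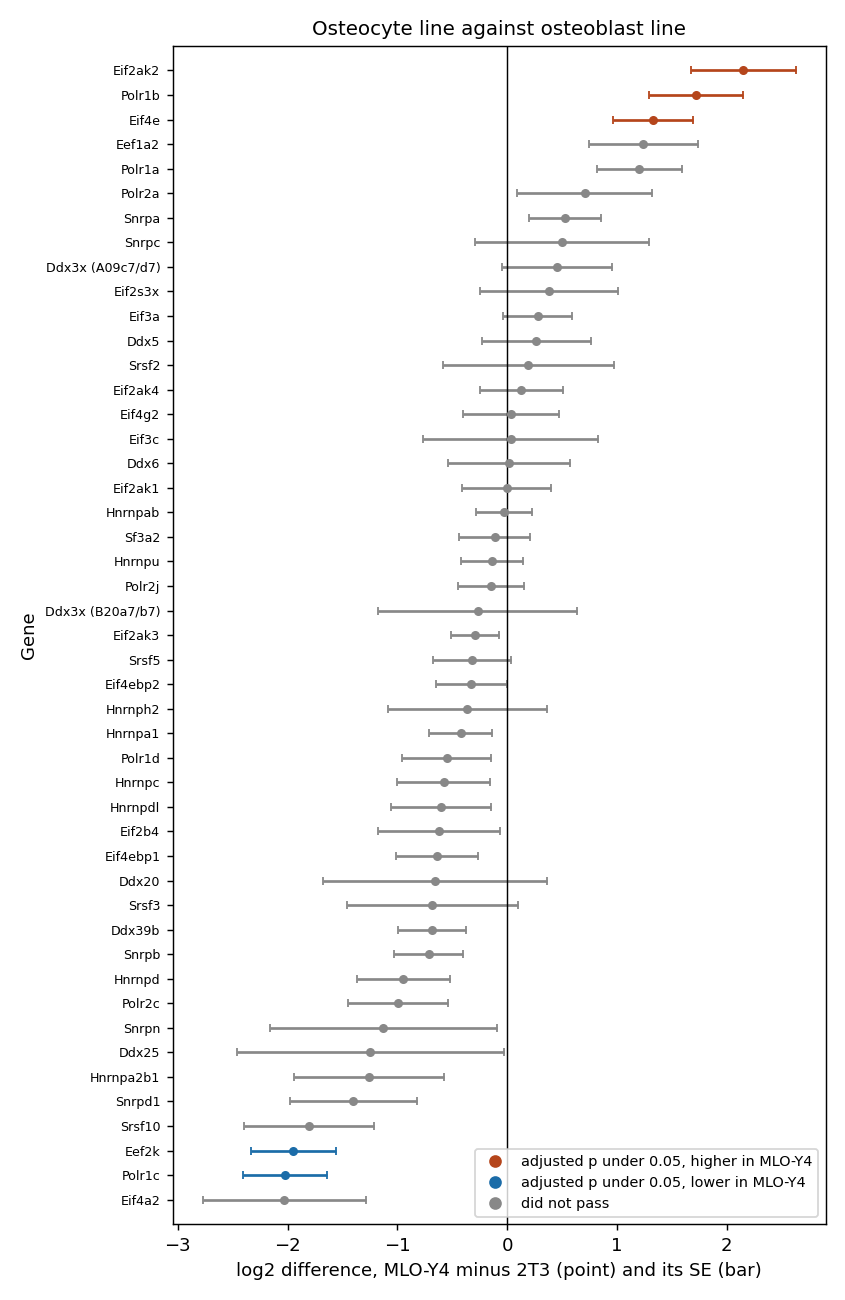
Log2 difference between MLO-Y4 and 2T3 over both densities (point) with its standard error (bar) for the 47 member spots, ordered by size. The 3 red points passed the test as higher in MLO-Y4, the 2 blue points as lower, and the grey points did not pass.

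Among the Eif genes, Eif2ak2 (Entrez 19106) encodes PKR, the eIF2 kinase that is switched on by double-stranded RNA and induced by interferon. Its level was 12.6, 11.3 and 19.5 in 2T3 C0 and 10.1, 7.75 and 14.1 in 2T3 low. In MLO-Y4 low it was 66.5, 23.6 and 79.6, and in MLO-Y4 high 37.3, 30.7 and 166. All 6 MLO-Y4 arrays lay above all 6 2T3 arrays, although the 2T3 values were close to the detection limit and only 4 of them, and 5 of the 6 MLO-Y4 values, were above it. The log2 difference was 2.15 (SE 0.48, n = 6 arrays per line, limma adjusted p = 0.0184). The call was lost when 2T3 C0 replicate 2 (adjusted p = 0.0525) or 2T3 low replicate 2 (0.0501) was left out, and without both MLO-Y4 replicate 1 arrays (0.0580), and with detected-spot scaling (0.169), with normexp background correction (0.0768) and with the floor raised to the highest detection limit (0.626).

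The other eIF2 kinases did not pass. Eif2ak1, the kinase that responds to haem shortage, was above the limit on all 12 arrays, with a log2 difference of -0.0046 (SE 0.40) and levels from 110 to 640. Eif2ak4 (Entrez 27103) encodes GCN2, the kinase that senses uncharged tRNA when amino acids are scarce, and differed by 0.13 (SE 0.38). Eif2ak3, the kinase of the endoplasmic reticulum stress response, was above the limit on 2 arrays, both of 2T3 low, at 6.58 and 14. The translation initiation complex eIF2 itself was measured by its gamma subunit Eif2s3x (0.38, SE 0.63), and its exchange factor eIF2B by Eif2b4 (-0.62, SE 0.56). For the eIF3 scaffold, Eif3a differed by 0.28 (SE 0.32) and Eif3c by 0.03 (SE 0.80).

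Eif4e (Entrez 13684), the cap-binding protein, was the member of the eIF4 group that rose in MLO-Y4. Its level was 1099, 604 and 291 in 2T3 C0 and 587, 263 and 284 in 2T3 low. It was 1115, 1087 and 1240 in MLO-Y4 low and 1516, 781 and 1187 in MLO-Y4 high. The lines overlapped through a single 2T3 array, C0 replicate 1, whose value was above the lowest MLO-Y4 values. The log2 difference was 1.33 (SE 0.36, n = 6 arrays per line, limma adjusted p = 0.0473). It remained called when 2T3 C0 replicate 1 (adjusted p = 0.0185), 2T3 low replicate 1 (0.0309) or MLO-Y4 high replicate 2 (0.0472) was left out and was lost when any 1 of the other 9 arrays was left out, with adjusted p of up to 0.109. It was also lost without both MLO-Y4 replicate 1 arrays (0.146), with a floor at the 40th percentile (0.0530) or at the highest limit (0.0791) and with the filter on dim spots (0.0634). The binding proteins that hold Eif4e away from the scaffold did not pass, with log2 differences of -0.64 (SE 0.37) for Eif4ebp1 and -0.32 (SE 0.32) for Eif4ebp2. Eif4g2, a scaffold-like factor that does not bind Eif4e, differed by 0.03 (SE 0.43). The helicase Eif4a2 differed by -2.03 (SE 0.74) and did not pass (adjusted p = 0.138). It was above the limit on 6 of 6 2T3 arrays, from 9.5 to 178, and on 2 of 6 MLO-Y4 arrays, at 31 and 18.4.

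Eef2k (Entrez 13631) encodes the kinase that phosphorylates elongation factor 2 and slows elongation. Its level was 43.3, 16.8 and 56.5 in 2T3 C0 and 20, 50.3 and 25.1 in 2T3 low. In MLO-Y4 low the values were 14.3, 8.83 and 6.08, and in MLO-Y4 high 6.83, 6.08 and 9.92. Every 2T3 array was above its detection limit, no MLO-Y4 array was above its own, and the readings of the lines did not overlap. On the MLO-Y4 replicate 1 arrays the limit, 47.2 and 47.8, lay above some of the 2T3 values, so separation there is uncertain. Because the MLO-Y4 values give only an upper limit, Eef2k was at least 1.48-fold lower in MLO-Y4. That bound sets the 2T3 mean against, on each MLO-Y4 array, the lowest value that was still above the limit. The fitted log2 difference was -1.95 (SE 0.39, n = 6 arrays per line, limma adjusted p = 0.0107), and it passed in all 12 analyses that left out 1 array. It did not pass with the floor at the 40th percentile (0.0616) or at the highest detection limit (0.748). Eef1a2, an elongation factor 1 alpha form known from muscle and neurons, was above the limit on no 2T3 array and on 3 MLO-Y4 arrays, at 59.3, 33.8 and 24.3. It did not pass (adjusted p = 0.181).

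The 4 RNA polymerase I subunits did not move together. Polr1c (Entrez 20016), a subunit shared by RNA polymerases I and III, and Polr1b (Entrez 20017), the second largest subunit of RNA polymerase I, differed in opposite directions between the lines. The level of Polr1c was 141, 109 and 133 in 2T3 C0 and 52.5, 165 and 128 in 2T3 low. It was 90.6, 51.7 and 71.6 in MLO-Y4 low and 21.6, 11.3 and 6.08 in MLO-Y4 high. MLO-Y4 high lay below every other group, and 1 of its 3 arrays was above the limit, whereas MLO-Y4 low overlapped with 2T3 low. The log2 difference over both densities was -2.02 (SE 0.38, 4.07-fold lower in MLO-Y4, n = 6 arrays per line, limma adjusted p = 0.00827). The fold was 2.94 with the values not above the limit raised to the limit of their array. The call passed in all 12 analyses that left out 1 array and was lost with the floor at the highest detection limit (adjusted p = 0.0919).

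Polr1b was 47.4, 29.3 and 23.8 in 2T3 C0 and 6.08, 25.7 and 14.1 in 2T3 low. It was 153, 86 and 39.4 in MLO-Y4 low and 68.4, 49.9 and 53 in MLO-Y4 high. The lines touched only at 2T3 C0 replicate 1 and MLO-Y4 low replicate 3. The log2 difference was 1.72 (SE 0.43, n = 6 arrays per line, limma adjusted p = 0.0315). Left-out arrays decided this call: it remained without 2T3 C0 replicate 1 (adjusted p = 0.0370), 2T3 low replicate 2 (0.0205) or MLO-Y4 low replicate 3 (0.0184), and it was lost without any 1 of the other 9, with adjusted p of up to 0.0764. Without both MLO-Y4 replicate 1 arrays the adjusted p was 0.110, with detected-spot scaling 0.0587 and with the floor at the highest limit 0.365. Polr1a, the largest subunit, was above the limit on 1 array of each MLO-Y4 group and on no 2T3 array, and did not pass (adjusted p = 0.0925). Polr1d, which pairs with Polr1c, was above the limit on all 12 arrays and differed by -0.55 (SE 0.41). Of the RNA polymerase II subunits, Polr2a, the largest and catalytic one, differed by 0.71 (SE 0.61), Polr2c by -0.99 (SE 0.45) and Polr2j by -0.15 (SE 0.30), and none passed.

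The promoters of 3 of these genes show what sequence lies before their starts. Upstream sequences of 250 bases were taken from RefSeq (GRCm38.p6) for 41 of the 46 genes. Those of Polr1c and Eif2ak4 are shown because both genes had their lowest levels in MLO-Y4 high, and that of Eif4e because it holds CACGTG, the letters of an E-box to which MYC and related factors can bind, here in capitals. The Polr1c sequence is at chr17:46248046-46248295, minus strand, with a GC content of 70.4%, the Eif2ak4 sequence at chr2:118388367-118388616, plus strand, with 67.2%, and the Eif4e sequence at chr3:138527018-138527267, plus strand, with 48.8%. For Eif4e it is the sequence before the later of its listed starts. The Eif2ak4 gene is annotated from 118388583, so the last bases of its sequence lie within the annotated gene.
Polr1c: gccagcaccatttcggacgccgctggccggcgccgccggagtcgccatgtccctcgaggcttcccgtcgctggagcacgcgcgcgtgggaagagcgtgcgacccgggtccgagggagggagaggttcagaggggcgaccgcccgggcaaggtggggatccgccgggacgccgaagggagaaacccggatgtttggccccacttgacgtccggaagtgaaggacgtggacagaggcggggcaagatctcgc
Eif2ak4: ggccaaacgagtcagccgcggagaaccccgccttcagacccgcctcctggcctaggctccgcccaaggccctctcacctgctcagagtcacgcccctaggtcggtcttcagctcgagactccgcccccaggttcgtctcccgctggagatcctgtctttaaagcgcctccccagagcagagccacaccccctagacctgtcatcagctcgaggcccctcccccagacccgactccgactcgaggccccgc
Eif4e: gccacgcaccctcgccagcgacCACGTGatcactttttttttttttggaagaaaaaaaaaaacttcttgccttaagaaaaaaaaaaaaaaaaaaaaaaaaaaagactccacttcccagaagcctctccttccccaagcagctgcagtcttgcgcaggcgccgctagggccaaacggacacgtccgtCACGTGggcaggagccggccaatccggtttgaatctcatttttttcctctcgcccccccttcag
CACGTG, which reads the same on both strands, occurred 2 times in the Eif4e sequence and in none of the other pair shown. Over the members it was found before 5 of 41 genes (12.2%: Ddx5, Eef2k, Eif4e, Hnrnpd and Snrpa), as against 6.86% of 27025 genes. An interferon response element was found on either strand before 1 of 41 genes (2.44%, Eif3a) as against 3.46%. TGATGNAA, letters of the element to which ATF4 binds with a partner, was found before 3 of 41 (7.32%: Eef2k, Eif2s3x and Hnrnpa2b1) as against 3.91%. None of the 3 searched motifs contains another, and a match is a description of the sequence only. The median GC content was 59.8% over the 52 listed member promoters and 52.4% over 32851 promoters.

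**Figure D3:**
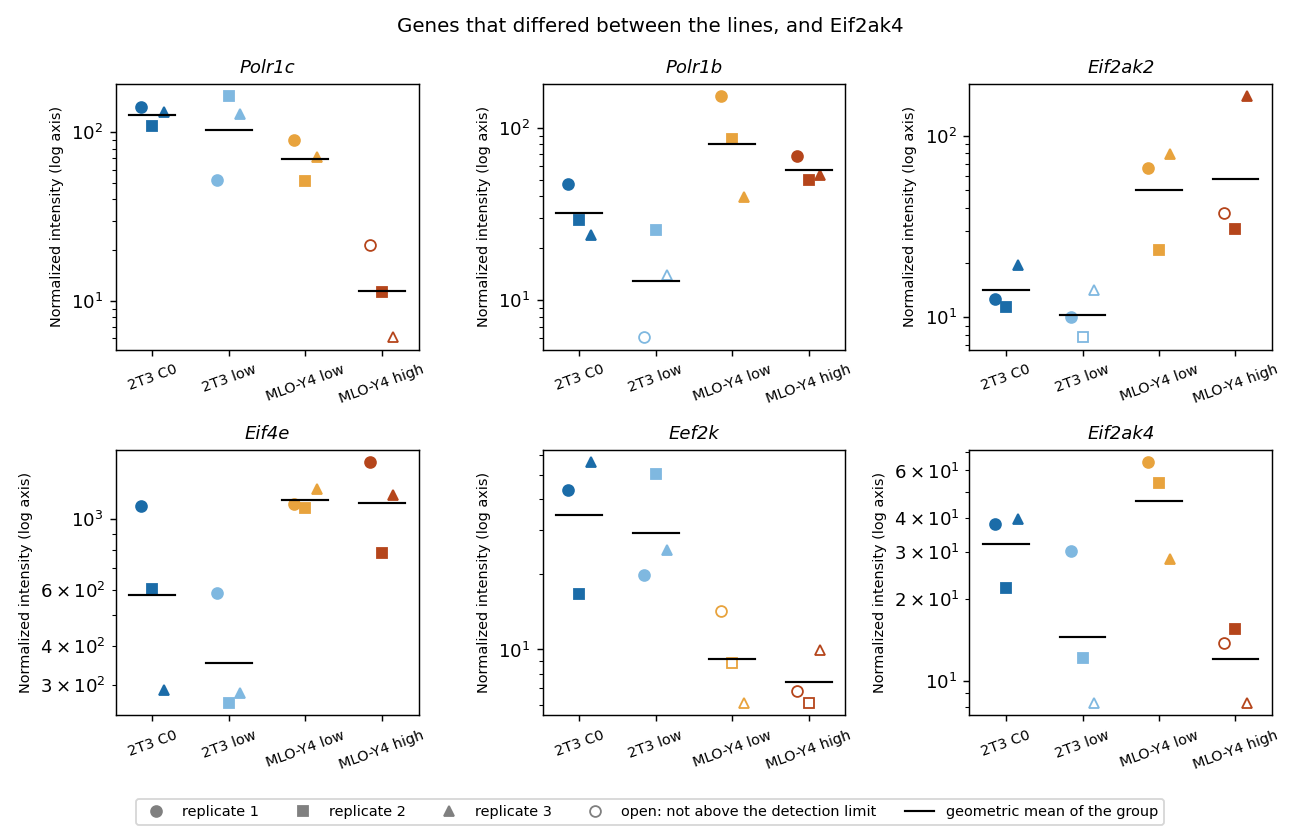
Normalized intensity (log axis) on each array for the 5 genes that differed between the lines and for Eif2ak4, with marker shape giving the replicate, open symbols values that were not above the detection limit, and lines geometric means. For Polr1c the 3 MLO-Y4 high arrays, at 6.08 to 21.6, lie below the other 9, and for Eef2k all 6 MLO-Y4 symbols are open.

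None of the genes for RNA-binding and splicing proteins passed in the comparison of lines. For the hnRNP genes, all 8 log2 differences were below 0, with a median of -0.50. With equal medians 4 of the 8 were above 0 and the median was 0.02, a scaling that also raised the median of the detected spots to 0.79. Relative to the detected spots the hnRNP median was -0.54 in the main analysis, -0.77 with equal medians, -0.59 with detected-spot scaling and -0.36 with normexp. Hnrnpa1, a splicing repressor, was 1421 to 2311 in 2T3 and 866 to 2267 in MLO-Y4. Its log2 difference was -0.42 (SE 0.29, adjusted p = 0.468). Hnrnpd, also known as AUF1, which binds AU-rich messages and speeds their decay, differed by -0.94 (SE 0.42, adjusted p = 0.238). Hnrnpa2b1 differed by -1.26 (SE 0.68), and its MLO-Y4 low replicate 2 value of 31 stood apart from 442 to 1612 on the other 11 arrays. The remaining hnRNP genes, Hnrnpab, Hnrnpc, Hnrnpdl, Hnrnph2 and Hnrnpu, had log2 differences between -0.60 and -0.03.

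Srsf10, an SR protein that represses splicing when dephosphorylated in heat shock, came nearest among the SR genes. It was 11.6, 23.6 and 106 in 2T3 C0, 52.5, 122 and 152 in 2T3 low, 22.8, 23.6 and 29.3 in MLO-Y4 low, and 26.4, 6.08 and 6.08 in MLO-Y4 high. It differed by -1.80 (SE 0.59, adjusted p = 0.0960), and no MLO-Y4 high array was above the limit. Srsf5 (-0.32, SE 0.35), Srsf3 (-0.68, SE 0.78) and Srsf2 (0.19, SE 0.78) differed by less than their standard errors. Of the snRNP genes, the core protein gene Snrpd1 differed by -1.40 (SE 0.58, adjusted p = 0.195) and Snrpb, which encodes another core protein, by -0.71 (SE 0.32, adjusted p = 0.230). The U1 proteins Snrpa (0.53, SE 0.33) and Snrpc (0.50, SE 0.79) had positive differences, and Snrpn, an imprinted gene, a difference of -1.13 (SE 1.03). Sf3a2, of the U2 snRNP, differed by -0.11 (SE 0.32). Among the helicases, Ddx39b, which acts in spliceosome assembly and export, had the smallest p, with a difference of -0.68 (SE 0.31, adjusted p = 0.238). The spots of Ddx3x gave 0.46 (SE 0.50) and -0.27 (SE 0.91), 1 above and 1 below 0.

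The comparison was then made at each density. At low density, MLO-Y4 against 2T3, 1 of 47 members was higher (2.13%, as against 2.86% of all spots) and 0 were lower (1.07% of all spots), where 3.94% of all spots were called in either direction. Limma gave 7 members (14.9%) and 777 spots (15.4%) with an unadjusted p under 0.05 at this density. Among those above the limit on all 12 arrays, they were 1 of 26 members (3.85%) and 285 of 1253 spots (22.7%). The member called was Polr1b, 6.18-fold higher in MLO-Y4 low (log2 2.63, SE 0.61, n = 3 arrays per group, adjusted p = 0.0402). The 3 MLO-Y4 low arrays lay above the 3 of 2T3 low, and of those 2T3 arrays 1 was above the limit. The fold was 5.07 with the other values raised to it. The call was lost with normexp (0.0574) and the highest-limit floor (0.449), without both MLO-Y4 replicate 1 arrays (0.147), and when 9 of the 12 arrays were left out in turn. It remained without 2T3 C0 replicate 1 (0.0471), 2T3 low replicate 2 (0.0319) or MLO-Y4 low replicate 3 (0.0320), and the highest adjusted p, 0.129, came without MLO-Y4 low replicate 1. Groups did not overlap for 6 members that were higher (12.8%) and 3 that were lower (6.38%), as against 10.4% and 8.49% of all spots. The 6 were Polr1b, Eif2ak2, Eef1a2, Eif4e, Ddx6 and Eif2ak1, and the 3 were Srsf10, Eef2k and Eif2ak3. For Eef2k and Eif2ak3 the limit on MLO-Y4 low replicate 1, 47.2, lay above 2T3 low values. For Eif2ak2 and Eef1a2 the limit on 2T3 low replicate 3, 25.1, lay above an MLO-Y4 low value. The separation of these genes is therefore uncertain. Of the 26 members above the limit on all 12 arrays, 2 were higher without overlap (7.69%) and 0 lower, as against 17.6% and 10.3% of 1253 spots. Polr1c, which differed over both densities, did not pass here (log2 -0.57, SE 0.54, adjusted p = 0.704).

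At the higher density, MLO-Y4 high against 2T3 C0, 0 of 47 members were higher (2.31% of all spots) and 1 was lower (2.13%, as against 1.05%), where 3.36% of all spots were called in either direction. Limma gave 9 members (19.1%) and 712 spots (14.2%) with an unadjusted p under 0.05. Among those above the limit on all 12 arrays, they were 3 of 26 members (11.5%) and 265 of 1253 spots (21.1%). The member called was Polr1c, which was lower in MLO-Y4 high (log2 -3.47, SE 0.54, n = 3 arrays per group, adjusted p = 0.00625). Because 2 of its 3 MLO-Y4 high values were not above the limit, the size of the difference is uncertain: the fitted fold was 11.1, and 5.81 with those values raised to the limit of their array. Its call remained when any 1 of the 12 arrays was left out and was lost with the floor at the highest limit (0.144). Groups did not overlap for 8 members that were lower (17.0%, as against 7.95% of all spots) and 3 that were higher (6.38%, as against 8.65%). Besides Polr1c, the lower ones were Eef2k, Eif2ak4, Eif4a2, Snrpb, Snrpd1, Ddx39b and Srsf3. The higher ones were Eif2ak2, Polr1b and Polr1a. Of these, Polr1a was above the limit on no 2T3 C0 array and on 1 MLO-Y4 high array. Eif2ak2 was not above the limit on MLO-Y4 high replicate 1, so the separation of both is uncertain. Among spots above the limit on all 12 arrays, 3 of 26 members were lower without overlap (11.5%), as against 11.5% of 1253 spots. There, 0 members were higher without overlap, as against 13.6%. For Eef2k, Eif2ak4 and Eif4a2 the limit on MLO-Y4 high replicate 1, 47.8, lay above 2T3 C0 values, so their separation is uncertain. Eif2ak2 was 4.09-fold higher in MLO-Y4 high and did not pass (adjusted p = 0.170). It passed in the fit with the replicate number as a block (adjusted p = 0.0430), and same-numbered arrays of these groups did vary together.

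The comparison of densities asks what confluence or gap junction contact goes with in each line. In 2T3, 0 of 47 members passed, as did 0% of all 5030 spots, and limma gave 3 members and 266 spots with an unadjusted p under 0.05. The members were Ddx39b, Eif4ebp2 and Eif2ak1, each with higher values in C0. Ddx39b was 1676, 1450 and 1126 in 2T3 C0 against 509, 485 and 1024 in 2T3 low. That is 2.21-fold, with a log2 difference of 1.15 (SE 0.44, limma adjusted p = 0.929). Eif4ebp2 was 1316, 721 and 710 in C0 and 330.1, 334 and 528 in low (log2 1.18, SE 0.46). Eif2ak1 was 640, 218 and 217 in C0 and 142, 110 and 128 in low (log2 1.31, SE 0.57). The groups did not overlap for these 3 genes, nor for Sf3a2 (log2 0.71, SE 0.46), which makes 4 of 47 higher in C0 (8.51%, as against 4.87% of all spots). Among spots above the limit on all 12 arrays, the share without overlap was 8.54% of 1253 spots and 15.4% of 26 members. In the other direction Eif2ak3 did not overlap (2.13% of the 47, as against 4.17% of all spots), with all 3 C0 arrays at the floor. Of the 47 differences 33 were positive and 14 negative, with a median of 0.38 as against 0 over all spots, and 31, 30 and 34 were positive with equal medians, detected-spot scaling and normexp. This pattern rested on 1 array: without 2T3 low replicate 1 the median was 0.02, with 24 positive and 23 negative. The median was 0.25 without 2T3 C0 replicate 1, 0.14 with normexp and 0.02 with the floor at the highest limit.

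In MLO-Y4, 0 of 47 members passed between high and low, as did 0% of all spots, and limma gave 3 members and 116 spots with an unadjusted p under 0.05. They were Polr1c, Eif2ak4 and Ddx6, each with lower values in the high group. For Polr1c the levels given above amount to 6.08-fold (log2 -2.60, SE 0.54, n = 3 arrays per group, unadjusted p = 0.000685, limma adjusted p = 1.0). With the MLO-Y4 high values that were not above the limit raised to it, the fold was 3.18. The smallest adjusted p over the alternatives was 0.113, with detected-spot scaling. Eif2ak4 was 64.7, 53.8 and 28.3 in MLO-Y4 low against 13.8, 15.5 and 8.25 in MLO-Y4 high, where 1 of 3 arrays was above the limit. The log2 difference was -1.94 (SE 0.54, 3.83-fold, unadjusted p = 0.00484, limma adjusted p = 1.0). The fold was 1.91 with the values not above the limit raised to it. Polr1c and Eif2ak4 are the 2 of 47 (4.26%, as against 2.11% of all spots) whose groups did not overlap in this direction, and no member was without overlap in the other (0%, as against 2.41%). For Eif2ak4 the limit on MLO-Y4 high replicate 1, 47.8, was above the 28.3 of MLO-Y4 low replicate 3, so its separation is uncertain. Of the 26 members above the limit on all 12 arrays, 0 lacked overlap, as against 1.92% of 1253 spots higher and 1.36% lower. Ddx6, a helicase of messenger RNA decay and storage, was 114, 103 and 69.8 in MLO-Y4 low and 94.2, 35.5 and 6.33 in high, with overlap. Of the 47 differences 12 were positive and 34 negative, with a median of -0.34 as against 0 over all spots. By family, the Ddx, Srsf and Polr2 differences were all negative (7 of 7, 4 of 4 and 3 of 3 spots, as against 49.3% of all spots), also with equal medians, detected-spot scaling and normexp, and none passed. Both Ddx3x spots are in this count. Ddx20, 1 of the Ddx3x spots, Srsf2 and Srsf10 were above the limit on no MLO-Y4 high array, so their direction is uncertain. The Snrp genes had 3 of 5 positive differences, with a median of 0.28, and the count was the same under those 3 alternatives. Of the Eif differences 5 were positive and 7 negative. The members' median depended on single arrays, moving to -0.09 without MLO-Y4 low replicate 1 and to -0.19 without MLO-Y4 high replicate 2. MLO-Y4 high also had fewer members above the limit, 29, 40 and 35 of 47 on its arrays, as against 35, 42 and 39 in MLO-Y4 low, and the part this has in the lower values was not tested.

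**Figure D4:**
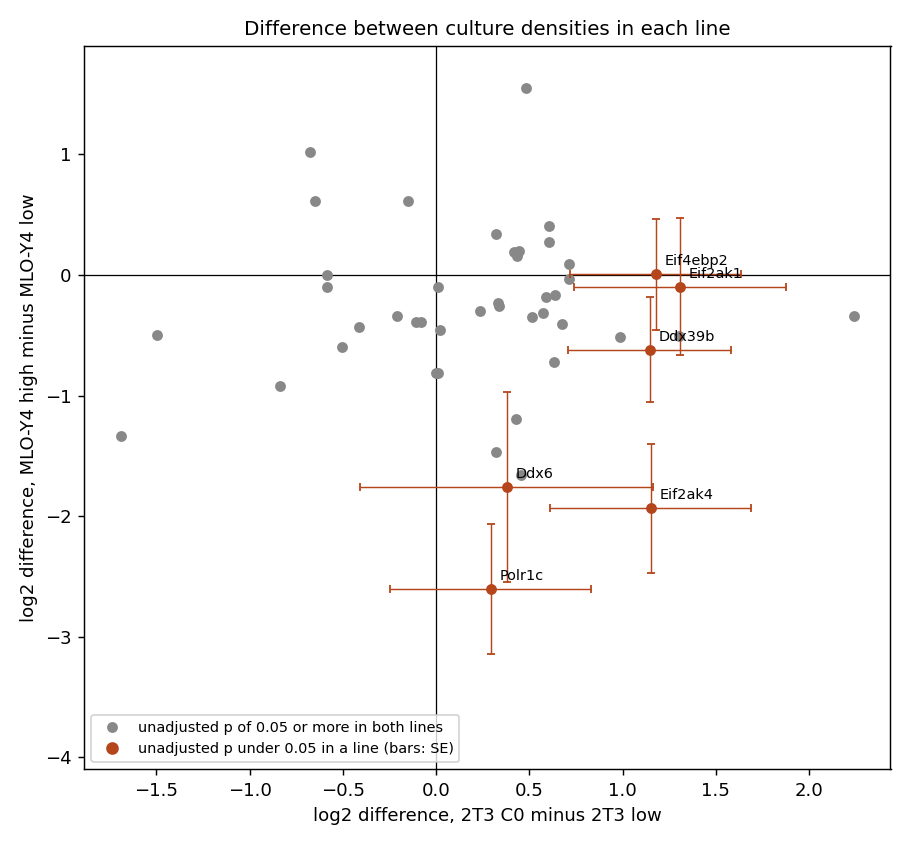
Log2 difference between C0 and low in 2T3 (horizontal axis) and between high and low in MLO-Y4 (vertical axis) for the 47 member spots. The 6 named genes had an unadjusted p under 0.05 in a line (bars, standard errors), and none passed after adjustment; Polr1c and Eif2ak4 lie lowest.

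Whether density went with different changes in each line was tested as an interaction. No member passed, as did 0% of all spots, and limma gave 3 members and 145 spots with an unadjusted p under 0.05. Eif2ak4 had the smallest p: it was 38.0, 22.0 and 39.8 in 2T3 C0 against 30.3, 12.1 and 8.25 in 2T3 low, with higher values in C0, while in MLO-Y4 the high group had the lower values. The difference of the density effects was -3.09 on the log2 scale (SE 0.76, unadjusted p = 0.00229, limma adjusted p = 1.0). For Polr1c it was -2.90 (SE 0.76, unadjusted p = 0.00347) and for Ddx39b -1.76 (SE 0.62, unadjusted p = 0.0168), both with an adjusted p of 1.0. Of the 47 interaction values 38 were negative and 9 positive, with a median of -0.57 as against 0.004 over all spots. The median was -0.32 without 2T3 low replicate 1 (17 positive, 30 negative), -0.34 without 2T3 C0 replicate 1 and -0.35 without MLO-Y4 high replicate 2 (19 positive, 28 negative). It was -0.27 with normexp and -0.20 with the floor at the highest limit. The interaction uses the same arrays as the 2 density comparisons and adds no independent observation.

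Some members varied more among the arrays of a group than between groups. Ddx25, a helicase known from the testis, was 261, 256, 110, 344 and 242 on 5 of the 2T3 arrays and not above the limit on C0 replicate 1. In MLO-Y4 it was 211 and 110 in low and 155 and 91.6 in high on replicates 2 and 3, and not above the limit on either replicate 1 array. Snrpn behaved alike in MLO-Y4, at 101 and 232 in low and 184 and 263 in high, and not above the limit on both replicate 1 arrays. Eif2s3x, an X-linked gene, went the other way, at 1029 and 933 on the MLO-Y4 replicate 1 arrays and 81.8 to 382 on the other 4. Ddx20, which acts with the SMN complex in snRNP assembly, was at 617 on 2T3 C0 replicate 1 and at most 30.8 on the other 11 arrays. Srsf2 was at 183 on MLO-Y4 low replicate 1 and at most 17.7 elsewhere, and Snrpc at 21.6 on 2T3 low replicate 1 and 117 to 766 elsewhere. The same arrays share a number across the MLO-Y4 groups, and same-numbered MLO-Y4 arrays deviated together from their group means over all spots (r of 0.625, 0.475 and 0.505 for numbers 1, 2 and 3), which describes arrays over spots that are not independent. The 26 members above the limit on every array had a median pairwise correlation of 0.243 in their deviations over the 12 arrays, as against 0.100 for 1253 such spots, and a median within-group SD of 0.68 on the log2 scale, as against 0.70. All these spots share the arrays and the normalization.

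**Figure D5:**
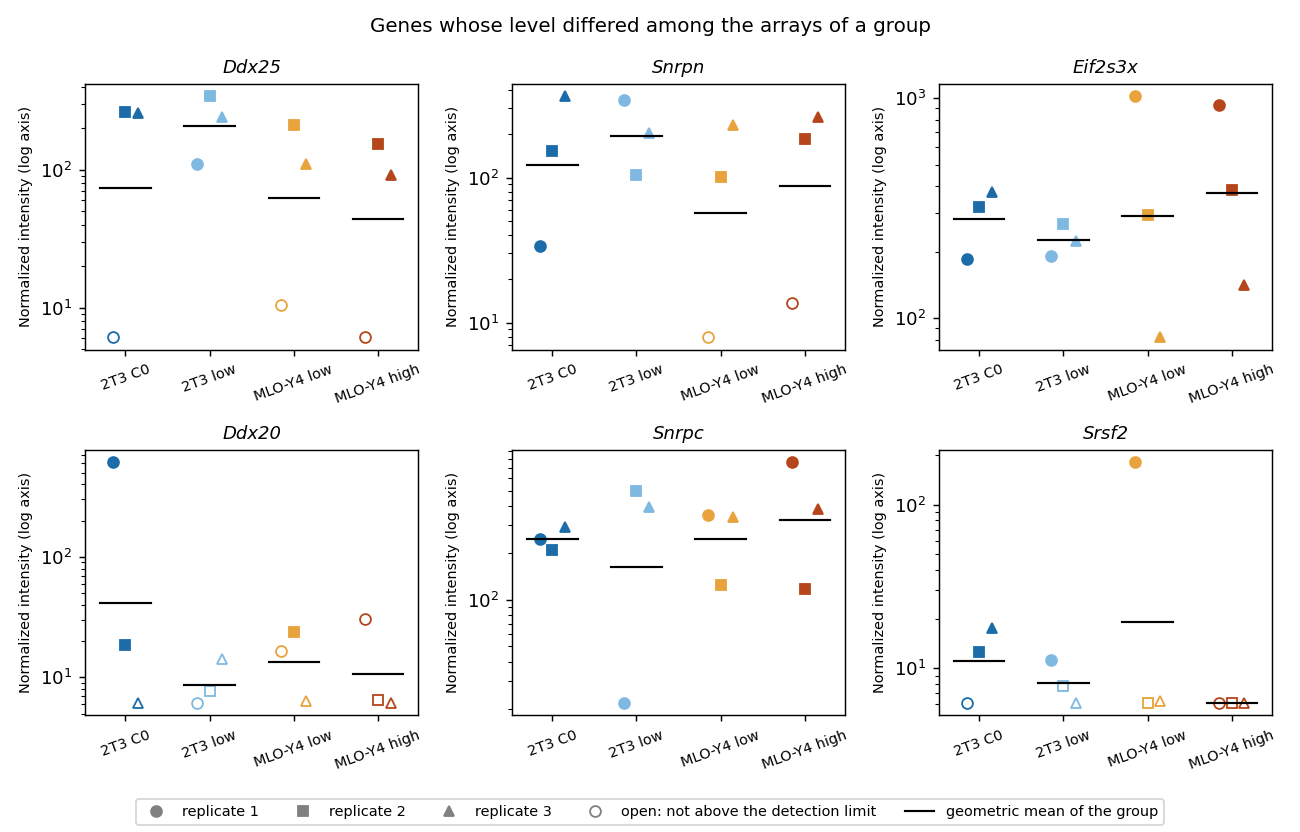
Normalized intensity (log axis) on each array for 6 members whose level differed among the arrays of a group, with marker shape giving the replicate, open symbols values not above the detection limit and lines geometric means. The circles (replicate 1) stand apart in both MLO-Y4 groups for Ddx25, Snrpn and Eif2s3x, and on 1 array for Ddx20, Snrpc and Srsf2.

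The wider pathway was followed with 7 lists of related genes, none of which had a member called between densities. Their counts between the lines are small and stand beside the 5.83% of all spots called higher in MLO-Y4 and the 3.48% called lower. Between the lines, the eIF2 kinase and stress response list had 2 of 12 genes higher and 0 lower, a list that shares 4 genes with the members. Beside Eif2ak2, the other was Ddit3, which encodes the stress factor CHOP, at a geometric mean of 61.4 in 2T3 and 426 in MLO-Y4 (log2 2.80, SE 0.73, adjusted p = 0.0386). Ddit3 remained called in 2 of 12 analyses that left out 1 array, those without MLO-Y4 low or MLO-Y4 high replicate 1, with adjusted p of up to 0.0933 in the others. Of the aminoacyl-tRNA synthetase list 0 of 4 and of the nucleolar and ribosome assembly list 0 of 8 passed, with Rrp1 nearest (log2 -1.31, SE 0.42, limma adjusted p = 0.0884). Of those 4 and 8 genes, 0 and 1 had an unadjusted p under 0.05.

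Among 28 other splicing factors and RNA-binding proteins, 2 were lower in MLO-Y4 and 0 higher. Lsm4, a protein of the U6 snRNP, had a geometric mean of 84.5 in 2T3 and 19.4 in MLO-Y4, where 3 of 6 arrays were above the limit (log2 -2.12, SE 0.44, adjusted p = 0.0127). Celf2, a splicing regulator, was above the limit on 5 of 6 2T3 arrays and on 0 of 6 MLO-Y4 arrays (adjusted p = 0.0215, and 0.0554 without 2T3 C0 replicate 3). Of 11 genes of 3′ end formation, export and decay, 1 was higher: Tob1, which recruits the deadenylase complex, with 429 in 2T3 and 1287 in MLO-Y4 (log2 1.59, SE 0.29, adjusted p = 0.00680). Of 7 translation regulators and termination factors, 1 was higher: Mtor, the kinase that releases Eif4e from its binding proteins, with 34.5 in 2T3 and 239 in MLO-Y4 (log2 2.79, SE 0.49, adjusted p = 0.00514). Tob1, Mtor and Lsm4 passed in all 12 analyses that left out 1 array. Of 23 general RNA polymerase II factors, 1 was higher: Supt6, an elongation factor and histone chaperone (log2 1.01, SE 0.27, adjusted p = 0.0431), which remained called in 2 of 12 such analyses, those without 2T3 C0 replicate 1 or MLO-Y4 low replicate 3, with adjusted p of up to 0.102 in the others.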

How the data were processed

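The 12 arrays are one-colour, with 1 sample each. The deposited values are linear spot intensities in whole numbers, some below 0, so background had been taken off before deposit. How the authors scanned and quantified the arrays is stated neither by labels nor by headers (not given in the sources used here). Of 5030 spots the platform annotation listed 4638. A single symbol was given for 4633 and several for 5, which leaves 392 without a name here. Entrez identifiers brought 4624 symbols up to date, those of the 47 members included. Quantile normalization was chosen because array medians lie near background, where equal medians, used in an earlier analysis of these data, would be set by background readings. Values below the 25th percentile were set to it before log2. Group means were fitted with limma 3.58.1 in R 4.3.3 (lmFit and eBayes, 8 residual degrees of freedom) over all spots and 6 comparisons, with Benjamini-Hochberg adjustment over 5030 spots. A fold change is on this floored log2 scale, and where values are not above the limit it may understate or overstate the difference. The fit was tested on simulated data for the comparison of lines, with 200 of the brighter spots changed. It recovered 47% of those changed by a log2 of 2 and 84% of those changed by a log2 of 4, with 14 false calls. A gene that did not pass may therefore still differ. With 3 arrays per group, the number of arrays limits the precision.

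The members and lists were chosen with earlier results of these data known. Genes were named by rule: the members past the threshold or with the smallest p in each comparison, the brightest member and the one with the smallest p of each family, Eif2ak4 and Polr1c, and the 2 genes with the smallest p of each list. Other members are named to account for the whole family, after their values were seen. Whether replicate numbers pair arrays was checked by correlating the deviations of same-numbered arrays from their group means. The correlations were 0.625, 0.475 and 0.505 between the MLO-Y4 groups and 0.526, 0.311 and 0.368 between 2T3 C0 and MLO-Y4 high, where every pair was over 0.1. They were 0.0388, 0.0645 and 0.152 between the 2T3 groups and 0.00284, -0.111 and 0.131 between the low groups. For 2T3 C0 replicate 3, the correlation with a differently numbered MLO-Y4 high array reached 0.273, beside 0.368 for the same number. Alternatives were other scalings (equal medians, or the median of detected spots), normexp with an offset of 50, a floor at the 40th percentile, a filter on dim spots (above the limit on at least 3 arrays), a replicate block, and leaving out each array or both MLO-Y4 replicate 1 arrays. A floor at the highest detection limit, and folds with the dimmer side raised to the limit, were added after seeing the data. Promoters come from RefSeq (GRCm38.p6).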

Additional observations from a re-analysis of the deposited data

How the results depend on the processing

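No result for a single gene changed direction with a call under any alternative run. Of 6029 gene results under the alternatives (295 results), 5923 kept their side of the threshold, 79 lost a call and 27 gained one. Most of the 295 results were not called in the main analysis, so most of the 5923 had no call to lose. Between the lines, the count of members higher, 3 in the main analysis, was 1 with detected-spot scaling, 0 without both MLO-Y4 replicate 1 arrays and 0 with the floor at the highest detection limit, an alternative chosen after seeing the data. With normexp, with the floor at the 40th percentile and with the filter on dim spots this count was 2. It ran from 0 to 4 when 1 array was left out. The count lower, 2, was 4 with detected-spot scaling, 3 without both MLO-Y4 replicate 1 arrays, 1 with a floor at the 40th percentile and 0 with the floor at the highest limit. It ran from 2 to 4 when 1 array was left out. At low density the count higher, 1, was 0 with normexp, 0 without both replicate 1 arrays and 0 with the highest-limit floor, and ran from 0 to 2 when 1 array was left out. The count lower, 0, was 1 with detected-spot scaling. At the higher density the count lower, 1, was 2 with detected-spot scaling, 2 with normexp, 0 with the highest-limit floor, and ran from 1 to 2 when 1 array was left out. The causes were not tested, except that the higher floors remove differences between dim spots by construction. Counts in the comparisons of densities stayed 0. Signal close to background limits the dim members: a member that was not above the limit has only an upper bound.

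With the replicate number as a block, 1 member in place of 0 was called higher at the higher density, in MLO-Y4 high against 2T3 C0: Eif2ak2 (adjusted p = 0.0430). Same-numbered arrays of these groups deviated together, but the labels do not say that they are paired. Between the low groups, where the check did not show this for all numbers, Polr1b lost its call (adjusted p = 0.0507) and Eif2ak2 gained one (0.0251), so the count stayed at 1. Between the lines the block brought in Exosc10 (0.0234), a gene of the decay list. It changed no other call of a named gene.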
